A study of Oryza sativa with 12 samples.

Results

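Loci whose transcript level separates idr1-1 from wild type rice in control and in drought leaves alike were chosen by a rule on the counts, and 49 of the 55986 listed loci met it. The rule used CPM, the count divided by the library total and multiplied by 1000000. It asked that the highest of the 6 libraries of one genotype be at most 0.67 times the lowest of the 6 libraries of the other, with a mean of at least 1 CPM in the higher genotype. That mean was reached by 20367 loci, called eligible here. All 49 loci were lower in idr1-1, which is 0.241% of the eligible loci, and 0 were higher. The rule chose the loci by the genotype difference itself, so levels, folds and directions between genotypes are given as a description with no test.

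The wild type was IAPAR9, an upland rice cultivar, and the mutant was idr1-1 in that cultivar. The mutant is known, from work on this line, to be affected in the gene RGA1, and it is 1 line, so an effect of RGA1 and of any other difference between that line and its parent cannot be told apart. Plants 5 weeks old grew in concrete tanks, where they were kept unstressed (control) or dried until soil moisture reached 10% (drought). Each genotype was sampled in each treatment with 3 biological replicates, which gave 12 RNA libraries of 19100444 to 25109848 counts. The labels give leaf as the tissue, while the extraction protocol speaks of seedlings. They do not say how often the mutant was backcrossed.

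RGA1 encodes a G protein alpha subunit, part of a switch at the plasma membrane that binds GTP when a receptor or another regulator activates it. The alpha subunit and the pair of beta and gamma subunits then act on other proteins, and the switch resets when GTP is cleaved. In rice, loss of this subunit is known for dwarf, erect growth and for altered responses to gibberellin, brassinosteroid and drought. The identifiers are those of the MSU rice annotation: the digits before the g give the chromosome, and the number after it rises along that chromosome. The files do not pair identifiers with names, so the loci are given by identifier and no role is stated for them.

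Several libraries bear on what follows. In idr1-1 drought, replicate 3 correlated at 0.964 and 0.952 with replicates 1 and 2, and every other replicate pair of the series was at 0.986 or above. These are Pearson r of log2(CPM + 1) across loci with a mean of at least 1 CPM over all 12 libraries. Counted over all listed loci, wild type control replicate 3 held 38 with at least 10 counts there and 0 in the other 11 libraries, against 0 or 1 such loci in each other library. Leaf markers were high: the light-harvesting genes CAB1R and CAB2R lay at 10320 to 17310 and 4021 to 8580 CPM. The shoot apex gene OSH1 had at most 1 count in a library, and the inflorescence genes MADS14 and MADS1 reached at most 3.41 and 0.962 CPM. PCNA, a gene of dividing cells, lay at 9.19 to 14.98 CPM. The cellulose synthase genes of secondary walls CESA4, CESA7 and CESA9 lay at 7.76 to 16.0 CPM in wild type control and 1.01 to 5.235 in idr1-1 control, without overlap. In drought they lay at 8.28 to 16.0 CPM in wild type and 11.2 to 24.7 in idr1-1. There CESA7 was higher in idr1-1 without overlap, while CESA4 and CESA9 overlapped. The genotype difference of these genes thus changed direction with treatment. Their part in the results below was not tested.

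The targeted gene came first as a check of the labels, and it is not counted among the 49. RGA1 (LOC_Os05g26890) was at 30.6, 25.5 and 34.0 CPM in wild type control, 24.6, 27.6 and 24.1 in wild type drought, 11.2, 12.3 and 11.5 in idr1-1 control, and 10.9, 12.7 and 12.3 in idr1-1 drought. Every idr1-1 library lay below every wild type library, and the mean in idr1-1 was 42.6% of that in wild type. RGB1 (LOC_Os03g46650), the beta subunit of the same complex, overlapped between genotypes at 28.7 to 36.3 CPM in wild type and 28.2 to 40.3 in idr1-1.

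The 49 loci fell into sets that behaved differently. In 11 of them every wild type library had counts and a gap separated the genotypes. The other 38 met the inequality only because 0 is at most 0.67 times 0: they had 0 counts in all 6 idr1-1 libraries and also 0 counts in at least 1 wild type library. For these 38 the label of a genotype marker in both treatments does not hold, since a wild type library at 0 cannot be told from idr1-1 by them. The 11 loci are 0.054% of the eligible loci. For comparison, 0.761% of the eligible loci (155) had all 6 idr1-1 libraries below all 6 wild type libraries by any margin, and 0.29% (59) had them all above.

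Of the 11 loci with a gap, 7 were near-absent in idr1-1, with no library of the mutant above 3 counts. The most abundant was LOC_Os08g02904, at 63.9, 57.7 and 74.6 CPM in wild type control and 53.2, 33.5 and 46.3 CPM in wild type drought. In idr1-1 it had 1 count in control replicate 3 and 0 in the other 5 libraries. Wild type thus held 7244 counts and idr1-1 a single one, a ratio of 6837 after scaling by library totals (95% counting interval 1227 to 270084, exact Clopper-Pearson). Counting intervals and floors here cover counting error only.

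LOC_Os10g04130 varied little in wild type. It lay at 15.4, 15.1 and 16.5 CPM in wild type control and 17.3, 17.6 and 15.4 CPM in wild type drought, and at 0 in all 6 idr1-1 libraries. Against a floor of 3 counts over the 6 idr1-1 libraries, wild type was at least 686-fold higher.

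LOC_Os12g44040 was at 15.1, 10.8 and 13.8 CPM in wild type control and 13.1, 13.1 and 14.0 CPM in wild type drought. Its counts in idr1-1 were 0.5, 0 and 0 in control and 1.5, 1 and 0 in drought, which is 3 counts against 1785 and a ratio of 562 (95% counting interval 192 to 2726). A value that is not whole arises where a counting tool divides a read among several features or positions.

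LOC_Os08g02900, the locus listed just before LOC_Os08g02904, had 122, 160 and 118 counts in wild type control and 110, 57 and 118 in wild type drought. It had 0 in every idr1-1 library and was at least 216-fold higher in wild type. In these 2 neighbours wild type drought replicate 2 was the lowest of the wild type libraries, at 2.27 CPM for LOC_Os08g02900 and 33.5 CPM for LOC_Os08g02904.

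The remaining 3 near-absent loci were low in wild type too. LOC_Os08g43590 was at 1.38 to 2.06 CPM over the 6 wild type libraries (at least 71.7-fold higher than in idr1-1) and LOC_Os11g26350 at 0.975 to 1.67 CPM (at least 56.8-fold, with 0.5 of a count in 1 idr1-1 library). LOC_Os06g20960 had 33, 21 and 17 counts in wild type control and 37, 39 and 3 in wild type drought, against 0 throughout idr1-1 (at least 47.2-fold). Its separation is thin in drought, since wild type drought replicate 3 sits at the floor of 3 counts, 0.132 CPM.

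**Figure D1:**
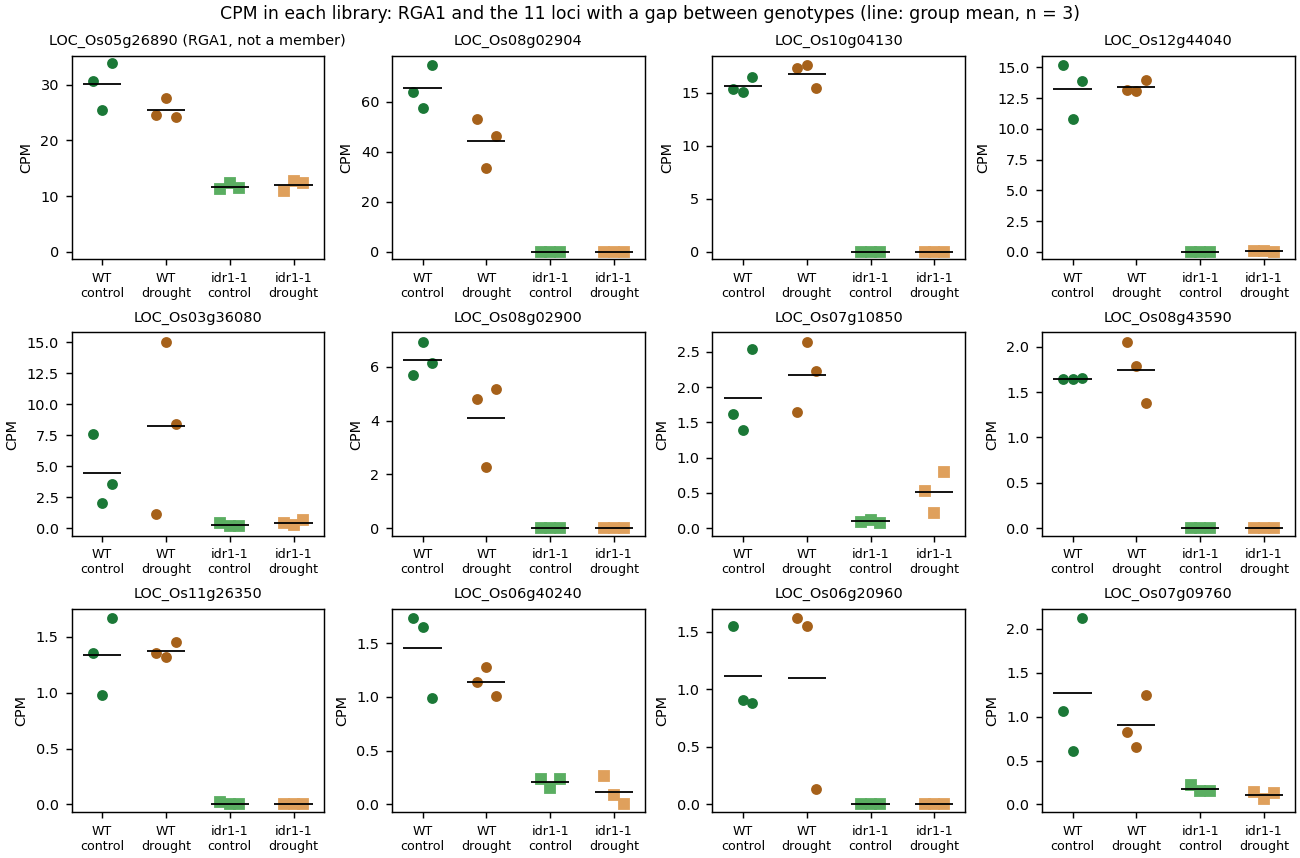
Level in each library, in CPM on a linear axis, of RGA1 and of the 11 loci with a gap between genotypes, ordered by mean wild type level; points are libraries (circles wild type, squares idr1-1) and lines are means of 3 replicates. RGA1 stays at 10.9 CPM or more in idr1-1, while 7 of the loci lie at or next to 0 in every idr1-1 library.

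The other 4 loci with a gap kept counts in idr1-1. LOC_Os03g36080 was at 7.63, 2.04 and 3.59 CPM in wild type control, 1.18, 15.1 and 8.38 in wild type drought, 0.378, 0.157 and 0.144 in idr1-1 control, and 0.440, 0.261 and 0.646 in idr1-1 drought. The genotypes did not overlap, but wild type itself varied widely, and the locus at 5.35% of the wild type mean was also among the closest to the threshold.

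LOC_Os06g40240 had 37, 38 and 19 counts in wild type control, 26, 32 and 23 in wild type drought, 5, 3 and 5 in idr1-1 control, and 6, 2 and 0 in idr1-1 drought. Its idr1-1 mean was 12.6% of that in wild type. LOC_Os07g09760 had means of 1.27 ± 0.775 and 0.906 ± 0.305 CPM in wild type control and drought (SD, n = 3) and 0.178 ± 0.0399 and 0.112 ± 0.0476 CPM in idr1-1, or 13.4% of wild type.

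LOC_Os07g10850 was the member whose genotype ratio differed most between treatments among these 4. It was at 1.61, 1.39 and 2.54 CPM in wild type control, 1.64, 2.65 and 2.22 in wild type drought, 0.0922, 0.122 and 0.0721 in idr1-1 control, and 0.522, 0.219 and 0.801 in idr1-1 drought. The wild type mean was 19.3 times the idr1-1 mean in control and 4.22 times in drought. The control ratio is uncertain, since idr1-1 control had 1.95, 2.33 and 1.5 counts, each under the floor of 3 counts. For LOC_Os03g36080 the ratios were 19.5 and 18.3, for LOC_Os06g40240 6.89 and 9.75, and for LOC_Os07g09760 7.10 and 8.06.

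LOC_Os07g10850 and LOC_Os03g36080 were the members just inside the threshold, with the highest idr1-1 library at 0.578 and 0.547 times the lowest wild type library. Just outside were LOC_Os10g14180 at 0.706 (3.80 to 4.77 CPM in wild type, 1.26 to 2.69 in idr1-1) and LOC_Os06g50520 at 0.751 (0.935 to 4.18 and 0.486 to 0.702 CPM). The fit across all genes called the genotype difference lower in idr1-1 for 11 of the 11 loci in control and for 6 of 11 in drought (adjusted p under 0.05 by edgeR), where 4.93% and 0.14% of all genes were called lower and 5.54% and 0.0438% higher. The rule fixed this contrast, so nothing is read from those counts.

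In the reverse direction the closest loci were LOC_Os10g15300, with the highest wild type library at 0.817 times the lowest idr1-1 library, and LOC_Os10g04270 at 0.836. LOC_Os10g15300 lay at 43.8 to 75.1 CPM in wild type and 91.9 to 111 CPM in idr1-1, so a locus higher in the mutant throughout existed but by less than the rule asked.

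Absence in a whole genotype was also looked for without the floor on level. In all, 8 loci had 0 counts in all 6 idr1-1 libraries and a count in all 6 wild type libraries, of which 4 are members. The other 4, named after their values were seen, were LOC_Os01g62990, LOC_Os02g19010, LOC_Os02g34760 and LOC_Os03g32302, all under 1 CPM on average. LOC_Os03g32302 had 15, 6 and 7 counts in wild type control and 2, 39 and 24 in wild type drought, an order of libraries like that of LOC_Os03g36080 (163, 47 and 69, then 27, 378 and 191 counts). The reverse pattern, 0 throughout wild type and a count in every idr1-1 library, held for 1 locus, LOC_Os02g25990, with 1 to 9 counts.

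By chromosome, the 11 loci with a gap lay on chromosomes 3 (1 locus), 6 (2), 7 (2), 8 (3), 10 (1), 11 (1) and 12 (1). RGA1 lies on chromosome 5, where 0 of these 11 were found. Over all 49 loci, chromosome 8 held the most, 8 of its 1324 eligible loci or 0.604%, and chromosome 5 the lowest share, 1 of 1631 or 0.0613%. Chromosome 1, with the most eligible loci (2927), held 6, all of them among the 38 loci with a wild type library at 0.

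**Figure D2:**
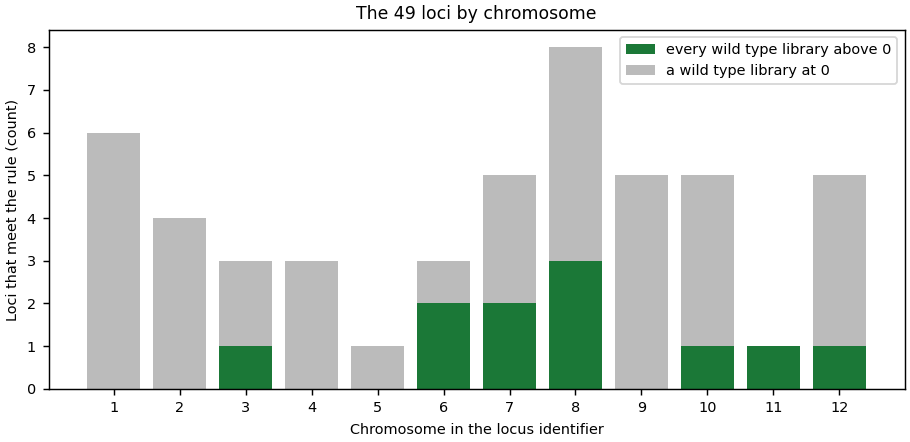
Number of the 49 loci on each chromosome named in the locus identifier, split into the 11 loci with every wild type library above 0 and the 38 with a wild type library at 0. Chromosome 8 holds 8 loci, 3 of them with a gap between genotypes, and chromosome 5, which carries RGA1, holds 1.

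Most members stood alone. Another member lay within 10 eligible loci for 4 of the 49 (8.16%), and a member lay that close for 4.59% of all eligible loci. These 4 were the adjacent pair LOC_Os08g02900 and LOC_Os08g02904, both with a gap, and the adjacent pair LOC_Os08g26700 and LOC_Os08g26710, both among the 38. The members were therefore single loci and pairs, with no longer stretch at this spacing.

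The pair on chromosome 8 sat in a short stretch in which idr1-1 had next to no counts. Of the 6 loci listed from LOC_Os08g02900 to LOC_Os08g02939, 4 had wild type counts and 2 were at 0 in every library. LOC_Os08g02909 and LOC_Os08g02939, too low for the rule, had 21.5 and 23 counts summed over wild type and 1 count each over idr1-1, with values that were equal in 10 of the 12 libraries. The nearest eligible loci on either side overlapped between genotypes: LOC_Os08g02860 was at 41.0 ± 3.64 CPM in wild type and 38.5 ± 6.13 in idr1-1 (SD, n = 6 libraries over both treatments), and LOC_Os08g02950 at 14.5 ± 2.30 and 13.8 ± 1.35 CPM. The 3 loci between LOC_Os08g02860 and LOC_Os08g02900 had 0 counts in every library, so the extent of the stretch on that side cannot be read from these counts.

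The same comparison was made around every locus with a gap. The nearest eligible loci on either side made 20 distinct loci. They were not always adjacent, with 0 to 19 listed loci lying between them and the member. For LOC_Os11g26350 these were 15 before and 19 after, and there were 13 before LOC_Os03g36080 and 13 after LOC_Os06g20960. Loci lying between were not part of this comparison. With both treatments pooled, the genotypes overlapped in all 20. Of all eligible loci, only 0.761% lay wholly lower and 0.29% wholly higher in idr1-1, so overlap is the usual case. Across the 20 loci the idr1-1 mean was a median of 93.0% of the wild type mean. LOC_Os11g26570 was lowest at 41.9% and LOC_Os06g20920 highest at 617%, the latter through idr1-1 drought replicate 3. LOC_Os12g44030, listed just before LOC_Os12g44040, was among the lower ones at 60.8%, and within each treatment its genotypes did not overlap. In control it was at 15.4, 16.1 and 15.8 CPM in wild type and 7.52, 10.7 and 9.52 in idr1-1. In drought it was at 10.1, 9.48 and 11.6 CPM in wild type and 6.73, 6.23 and 6.96 in idr1-1. LOC_Os10g04120, just before LOC_Os10g04130, was at 67.9%, and its genotypes overlapped in drought but not in control. The share of all loci whose genotypes do not overlap within a treatment is not given here. The shares above are for both treatments pooled, so nothing is read from the separation of these neighbours. Whether reads of these neighbours overlap those of the members was not tested. LOC_Os06g20970, just after LOC_Os06g20960 and too low for the rule, had 10, 1 and 0 counts in wild type control, 11, 5 and 1 in wild type drought, and 0 throughout idr1-1.

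**Figure D3:**
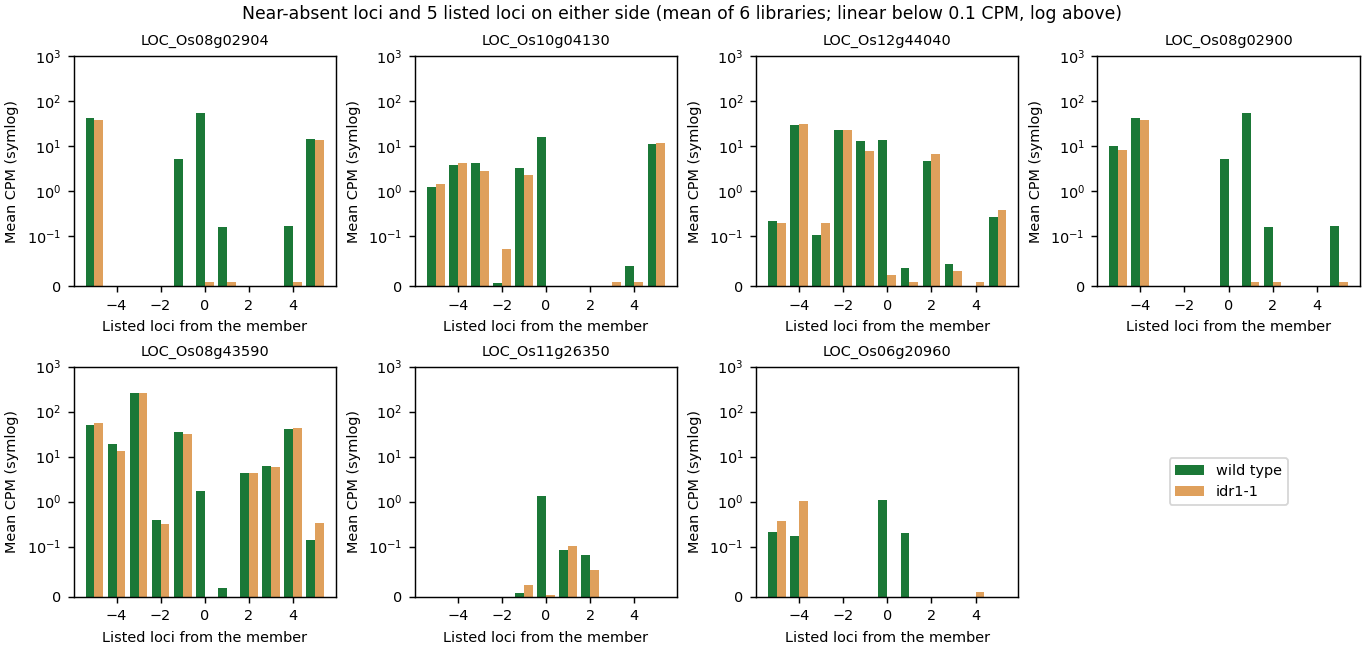
Mean CPM over the 6 libraries of each genotype (green wild type, orange idr1-1) for the 7 near-absent loci, at position 0, and the 5 listed loci on either side; the vertical axis is linear below 0.1 CPM and logarithmic above. LOC_Os08g02900 and LOC_Os08g02904 are next to each other and appear in each other's panels. In the panel of LOC_Os11g26350 no neighbour exceeds 0.106 CPM. In that of LOC_Os06g20960 the highest neighbour is LOC_Os06g20920, at 0.170 CPM in wild type and 1.05 in idr1-1. In the other panels the neighbours at 1 CPM or more in wild type carry bars of both genotypes, apart from the adjacent pair.

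Divided reads touch some members. A value that was not whole occurred in at least 1 library for 24.5% of eligible loci (4986), for 6 of the 11 loci with a gap and for 5 of the 38. For LOC_Os07g09760 and LOC_Os07g10850 the value was not whole in all 12 libraries, so their levels in either genotype are uncertain. The same holds for RGA1, which is not a member: its value was not whole in all 12 libraries, so the levels given for it above are uncertain too. LOC_Os10g04130, LOC_Os08g02900, LOC_Os03g36080, LOC_Os06g20960 and LOC_Os06g40240 had whole values throughout.

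The response of these loci to drought is a contrast the rule did not use, although it limits the response in that the genotypes must stay apart. In wild type, 0 of the 11 loci were called higher and 1 lower under drought by the quasi-likelihood test of edgeR (Benjamini-Hochberg adjusted p under 0.05 over 22833 genes). Of all genes tested, 43.9% were called, 22.4% higher and 21.5% lower. At an unadjusted p under 0.05 the counts were likewise 0 and 1, and DESeq2 gave 0 and 1. The median log2 fold change was 0.08 over the 11 loci and 0.00478 over all genes. All 11 passed the filter on low counts, and the near-absent ones among them could do so only through wild type. Most of the 11 were low, with a median wild type mean of 2.01 CPM against 15.1 CPM for eligible loci. Few counts limit what the test can call, so the share called is not comparable with that of all genes.

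The single call was LOC_Os08g02904, which went from 65.4 ± 8.55 CPM in wild type control to 44.4 ± 10.0 in drought (log2 fold change -0.50, SE 0.17, adjusted p = 0.0408 by edgeR). Without wild type drought replicate 2 or control replicate 3 the fall was smaller and no longer called (-0.32 and -0.41, adjusted p = 0.11 and 0.13). Without wild type control replicate 1 or 2 or drought replicate 3 it was larger but not called with fewer libraries (-0.53, -0.56 and -0.56, adjusted p = 0.077, 0.056 and 0.062). Without idr1-1 control replicate 2 or 3 it was unchanged at -0.50 and just missed the threshold (adjusted p = 0.051 and 0.054). Its neighbour LOC_Os08g02900 had -0.56 (SE 0.32, adjusted p = 0.2). LOC_Os10g04130, with the smallest error, gave 0.15 (SE 0.10, adjusted p = 0.26), and LOC_Os12g44040 0.08 (SE 0.18, adjusted p = 0.76). LOC_Os03g36080 gave 0.97 (SE 0.66, adjusted p = 0.26), which became 1.49 (adjusted p = 0.025) without wild type drought replicate 1, the library in which it was lowest, and 0.22 (adjusted p = 0.83) without wild type drought replicate 2, in which it was highest. Leaving out a control library gave 0.63 to 1.61, not called.

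In idr1-1 only the 4 loci that kept counts can show a drought response. Of these, 1 was called higher and 0 lower by edgeR, by DESeq2 and at an unadjusted p under 0.05. Of all genes 35.6% were called by edgeR, 18.0% higher and 17.6% lower. LOC_Os07g10850 rose by 2.32 (log2, SE 0.53, adjusted p = 0.0055), higher in 3 of 3 drought libraries than in any control library. It started from 1.95, 2.33 and 1.5 counts in idr1-1 control, each under the floor of 3 counts. In idr1-1 drought it had 11.9, 5.03 and 16.1 counts, so the size of the rise is uncertain. Without idr1-1 drought replicate 3, the library that stands apart, the rise was 2.0 (log2, adjusted p = 0.023). LOC_Os03g36080 gave 0.97 (SE 1.20, adjusted p = 0.57), LOC_Os06g40240 -0.73 (SE 0.73, adjusted p = 0.47) and LOC_Os07g09760 -0.69 (SE 0.73, adjusted p = 0.5). These values rest on few counts: LOC_Os06g40240 moved to -2.07 (adjusted p = 0.073) without idr1-1 drought replicate 1 and to -0.14 (adjusted p = 0.89) without replicate 3. Without 1 idr1-1 library LOC_Os03g36080 ranged from 0.74 to 1.54 and LOC_Os07g09760 from -0.93 to -0.36, none of them called.

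LOC_Os07g10840, the locus listed just before LOC_Os07g10850, moved in the same direction in idr1-1 by much more. In wild type LOC_Os07g10840 also rose, while LOC_Os07g10850 was not called (log2 fold change 0.31, SE 0.32, adjusted p = 0.45 by edgeR). LOC_Os07g10840 was at 97.5, 108 and 86.9 CPM in wild type control and 4590, 4214 and 4461 in wild type drought, and at 134, 92.2 and 125 in idr1-1 control and 973, 1372 and 5203 in idr1-1 drought. LOC_Os07g10850 was likewise highest in replicate 3 among the idr1-1 drought libraries, although its lowest value was in replicate 2 and that of the neighbour in replicate 1. Whether reads of the neighbour enter the counts of LOC_Os07g10850 was not tested.

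The difference of the drought responses, idr1-1 minus wild type, was called for 0 of these 4 loci by edgeR and by DESeq2, and by edgeR for 0.0482% of all genes, 0.0131% higher and 0.035% lower. At an unadjusted p under 0.05 it was 1 of 4, LOC_Os07g10850, with 2.01 (log2, SE 0.63, adjusted p = 0.17). LOC_Os06g40240 gave -0.42 (SE 0.82, adjusted p = 0.86) and LOC_Os07g09760 -0.28 (SE 0.80, adjusted p = 0.91), intervals too wide to show whether the responses were alike. For the 7 near-absent loci this difference has no meaning, since idr1-1 gives no level from which to measure a response.

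The 38 loci with a wild type library at 0 differed widely among wild type libraries, between treatments and within them. Their counts summed to 754, 3524 and 6498 in wild type control replicates 1, 2 and 3, to 460, 0 and 915 in wild type drought replicates 1, 2 and 3, and to 0 in all 6 idr1-1 libraries. In CPM the sums were 35.3, 153 and 338 in wild type control and 20.1, 0 and 40.2 in wild type drought. Wild type drought replicate 2, the deepest library of the series, had 0 counts for 38 of 38, which allows at most 0.119 CPM for each. Wild type control replicate 3 had a count for every one, and was the highest library in CPM for 28 of them, while control replicate 2 was highest for 9 and drought replicate 3 for 1.

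Within a treatment the libraries kept much the same order from locus to locus. Control replicates 2 and 3 both exceeded control replicate 1 at 31 of the 38 loci, and drought replicate 3 exceeded drought replicate 1 at 28, with 3 the other way and 7 at 0 in both. Of the 38, 22 had counts in all 5 wild type libraries other than drought replicate 2. Without that library they would separate the genotypes: the number of loci with a gap was then 52 in place of 11. Of the 52, 51 were lower and 1 was higher in idr1-1. The 38 gave 22 of the 52, and the rest of the gain came from loci outside the 49. The cause of this library's zeros was not tested.

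A smaller set of 7 loci had at least 90% of their wild type counts in control replicate 3 alone and 0 in all drought libraries. LOC_Os02g40240 had 1804 counts there, 1 in control replicate 2 and 0 elsewhere, so that its wild type mean of 15.7 CPM stands for 1 library. LOC_Os12g13674 had 531 counts there and 1 in control replicate 1, and LOC_Os12g20390 had 319 there and 0 elsewhere. These loci describe 1 library and not a genotype.

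The other 31 had counts in several wild type libraries. LOC_Os05g25610, with the highest wild type mean among them, had 199, 802 and 417 counts in wild type control and 16, 0 and 43 in wild type drought. LOC_Os10g39130 had 0, 650 and 292, then 0, 0 and 5. LOC_Os04g01330 had 52, 184 and 179, then 27, 0 and 104, and LOC_Os06g09020 0, 153 and 221, then 56.3, 0 and 15. The adjacent loci LOC_Os08g26700 and LOC_Os08g26710 had 24, 115 and 137 against 19, 55 and 55 counts in control, and 16, 0 and 42 against 0, 0 and 3 in drought. Most of the 38 were low: 24 had a wild type mean under 2 CPM, and the median was 1.71 CPM, against 15.1 CPM for eligible loci.

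**Figure D4:**
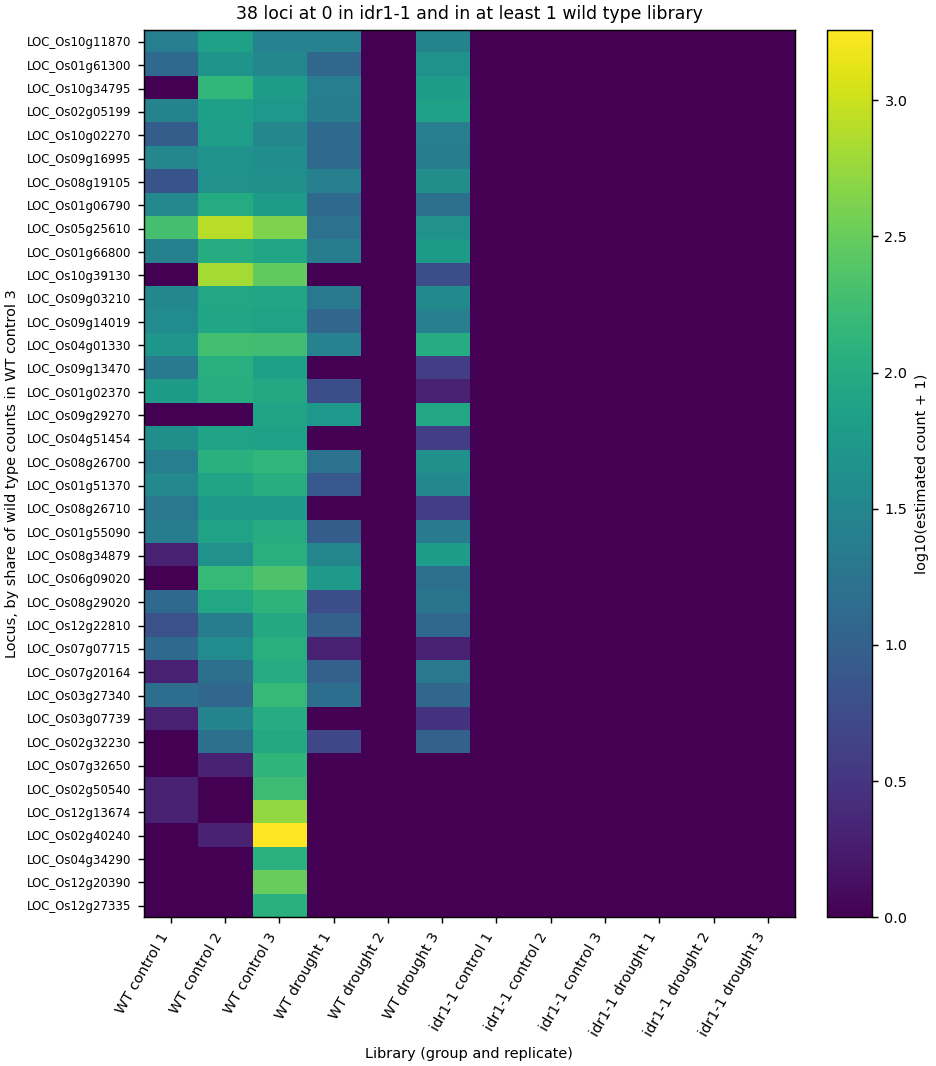
Estimated counts, as log10(count + 1), of the 38 loci that are at 0 in idr1-1 and in at least 1 wild type library, with libraries in columns and loci in rows ordered by the share of their wild type counts in wild type control replicate 3. The column of wild type drought replicate 2 is at 0 for 38 of 38 loci, as are all 6 idr1-1 columns, and the bottom 7 rows have nearly all their counts in wild type control replicate 3.

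The drought contrast in wild type is given for the 38 loci as a description only. They were set apart by a wild type library at 0, and drought replicate 2 was at 0 for 38 of 38; those that passed the filter on low counts, 28 of 38, could do so only through wild type, so the contrast was tilted lower by the choice. Of the 28, edgeR called 10 lower and 0 higher, where 21.5% and 22.4% of all genes were called; at an unadjusted p under 0.05 the counts were 11 and 0, and DESeq2 gave 3 and 0. Nothing is read from these counts. LOC_Os01g02370, named after its values were seen, had 59, 107 and 92 counts in control and 5, 0 and 1 in drought. There even the drought libraries with counts lay below every control library, as they did for LOC_Os05g25610, given above.

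The pattern of the 38 extended to loci below the floor on level. Among all listed loci, 210 had 0 counts throughout idr1-1 and at least 10 over wild type, and 184 of these were at 0 in wild type drought replicate 2. Wild type control replicate 3 was the highest library in counts for 103 of the 210 and control replicate 2 for 71. The reverse, 0 throughout wild type and at least 10 counts over idr1-1, held for 14 loci, of which idr1-1 drought replicate 3 was highest for 11. The identifier did not end in 0 for 12 of the 38 loci and for 1 of the 11 with a gap, against 8.18% of eligible loci. Of the inflorescence genes, MADS14 was at 1.48, 3.29 and 3.41 CPM in wild type control, an order like that of many of the 38 loci there. In wild type drought MADS14 was at 0.0875, 0.0398 and 0 CPM. It was thus above 0 in drought replicate 2, where all 38 were at 0, so the likeness is limited to control. MADS14 was also at 1.73, 2.96 and 3.08 CPM in idr1-1 control, where all 38 were at 0. MADS1 was at 0.375, 0.823 and 0.156 CPM in wild type control and at 0.851, 0.733 and 0.962 in idr1-1 control. The part of such tissue in the counts of the 38 loci was not tested.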

How the data were processed

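The deposited values are estimated counts per locus, in 1 file per library with 55801 LOC_Os identifiers and 185 other entries, not scaled to depth. The authors used HISAT2 2.1.0 and featureCounts 1.6.3, per the submitters' processing notes. Build, annotation, strand setting and the way reads were divided: not given in the sources used here. Values that were not whole made up 13.8% of those above 0. Overlapping genes, antisense pairs and near-identical copies are uncertain. Members and lists were chosen with earlier results of these data known. The rule was applied to unrounded counts and library totals; RGA1 was left out. The rule for named loci took the members of largest ratio and of highest mean, near-absent loci by mean, those next to the threshold, and members within 10 eligible loci of each other; other loci with a gap, flanking loci and single examples were named after their values were seen. For the tests, counts were rounded and fitted with edgeR 4.0.16 under R 4.3.3 (TMM scaling, its filterByExpr filter, quasi-likelihood test, 1 mean per group over 12 libraries, 8 residual degrees of freedom), with Benjamini-Hochberg adjustment over all genes and a threshold of 0.05. DESeq2 1.42.0 was an alternative. Standard errors are the size of the log2 fold change over the square root of F. The steps were tested on simulated counts. A RefSeq gene table (assembly ASM3414082v1) held 0 of the LOC_Os identifiers; marker names and RGB1 are published assignments whose names that table holds on the same chromosome. Planned markers and G protein subunits that it does not hold so are not used here. Replicates are biological per the series' design text, though whether replicate libraries came from separate plants is not stated further. No pair of replicate libraries was a duplicate (chi-square per locus of 8.20 or more). A floor of 3 counts is 0.119 to 0.157 CPM in a library.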

Additional observations from a re-analysis of the deposited data

How the results depend on the processing

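The count of 49 loci was within 1.5 times under the ratio thresholds of 0.5 and 0.8 and under both other scalings. It was 8 at a mean of at least 5 CPM, 82 at a mean of at least 0.5 CPM and 11 when the lowest wild type library had to be above 0, a requirement chosen after seeing the data. Leaving out 1 library gave 35 to 75. The count of 11 was unchanged under TMM and DESeq2 scaling, and the same 11 loci were found. It was 9 at a ratio of 0.5, where LOC_Os03g36080 and LOC_Os07g10850 were lost, and 14 at a ratio of 0.8. It was 5 at a mean of at least 5 CPM and 16 at a mean of at least 0.5 CPM. Without 1 library it was 11 to 52, the highest without wild type drought replicate 2. Among these fits without 1 library, LOC_Os07g09760 was the 1 locus lost, without wild type control replicate 3. Without that library and wild type drought replicate 2 together, chosen after seeing the data, 54 loci had a gap and 2 were higher in idr1-1. The count higher in idr1-1 was 3 at a mean of at least 0.5 CPM and 0 to 3 without 1 library.

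The 11 members called lower under drought in wild type, 10 of them loci chosen with a drought library at 0, became 4 with DESeq2, 17 with no filter on low counts, and 6 to 14 without 1 library; 0 to 1 were called higher. The call for LOC_Os07g10850 in idr1-1 (1 locus higher) became 0 when only the 2 groups entered the fit, because the locus did not pass the filter there. With the replicate number as a block, 10 members were called lower in wild type and 1 higher in idr1-1. Deviations of same-numbered libraries from their group means correlated at r of -0.357 to 0.242. They show no strong pairing by number, but deviations from means of few libraries cannot settle whether the numbers pair the samples. Log2 changes that were not called changed sign in wild type for LOC_Os06g20960 (-0.0125 with library size alone, -0.211 with the replicate block, -0.328 to 0.536 without 1 library), LOC_Os11g26350 (-0.0521 to 0.298 without 1 library), LOC_Os12g44040 (-0.0319 to 0.174) and LOC_Os07g09760 (-0.74 to 0.151). The difference of responses changed sign for LOC_Os03g36080 (-0.645 to 0.743 without 1 library), LOC_Os06g40240 (-1.77 to 0.166) and LOC_Os07g09760 (-0.843 to 0.0512). The causes were not tested. LOC_Os06g20960 and LOC_Os07g09760 rest on 3 to 39 and 14.2 to 40.8 counts a library in wild type, which limits their precision.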
